A study of Schizosaccharomyces pombe with 21 samples.

Results

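The step from 12 h to 24 h of phosphate starvation was followed in *ecl123*Δ fission yeast (*Schizosaccharomyces pombe*), from which the genes *ecl1*, *ecl2* and *ecl3* are deleted. A gene was included when the authors' mean of its normalised read counts was at least 100 at 24 h or at 12 h. This took 5852 of the 6988 listed genes and left 1136 that were not compared. For each gene the mean at 24 h was divided by the mean at 12 h. The gene that was included with the lowest level had a larger mean of 100.35, and the highest gene left out had 99.3.

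The 24 h group was 3 biological replicates of an h- strain in which the 3 genes were replaced with drug-resistance cassettes (ecl1Δ::hygMX ecl2Δ::natMX ecl3Δ::kanMX). Like every strain of the study, it also carries mutant alleles of *leu1*, *ura4*, *his3* and *ade6*. The 12 h group was 3 biological replicates of the same strain. Both groups had grown at 30 °C in rich medium (YES) and were then washed and moved to ePMGT(-PO4), a defined medium with glucose, glutamate and supplements from which phosphate was left out, and cultures were diluted as they grew. The course has 5 other times, 0, 4 and 8 h before the step and 36 h and 48 h after it, also with 3 libraries each, 21 in all. Every library carries the deletions and every time from 4 h on shares the change of medium, and no *ecl*+ library was analysed here, so the effects of the deletions, of the medium and of starvation on a level cannot be told apart here. Poly(A)+ RNA was sequenced, and levels are therefore relative. They follow the authors' depth scaling between libraries and are not scaled to a common total.

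The Ecl proteins are very short, cysteine-rich proteins that were identified in fission yeast as factors that extend chronological lifespan when overproduced. Fission yeast cells without phosphate turn on the PHO regulon, 3 genes for phosphate acquisition, and go on dividing for some hours before they leave the cell cycle. Cells that stop growing in starvation generally lower the genes for ribosomes and for division.

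The deposited values used here are 1 mean per gene and time point. The spread between the 3 replicates is not part of them, so no test was run and a difference is called only by its size, at least 2-fold in either direction. The interval beside a ratio is an exact (Clopper-Pearson) binomial interval at 95% for the reads behind both means. It covers counting error only, and the error between cultures adds to it. Libraries averaged 21426284 counted reads at 24 h and 22460414 at 12 h, as worked out from the means, with size factors (the authors' depth scaling) of 0.804 to 1.07 at 24 h and 0.926 to 1.20 at 12 h. The upper bound of the interval was typically 1.3 times its lower bound for genes with a larger mean between 100 and 300 and 1.07 times for genes above 1000.

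The labels were set against the targeted genes and the mating type. *ecl3* was near the floor, with authors' means of 3.10 at 24 h and 3.05 at 12 h. *ecl2* had 2213 at 24 h and 2572 at 12 h, and *ecl1* 1974 at 24 h and 2228 at 12 h. Annotated transcripts of *ecl1* and *ecl2* are 820 and 1509 bases long, of which 243 and 255 are coding. Whether these reads lie in the coding part or in the flanking transcript cannot be told from a level per gene, and the libraries are called *ecl123*Δ as labelled. Genes of the M mating type, that of h- cells, were detected (*mfm2*, an M-factor precursor, had 7237 at 24 h and 9882 at 12 h). Other M-type genes were lower, such as *sxa2*, with 527 at 24 h and 807.3 at 12 h. P-type genes were not at 0 either, from *map2*, the P-factor precursor (234.2 at 24 h and 216.04 at 12 h), to *sxa1*, a protease gene (6077 at 24 h and 8243 at 12 h), so the levels of both lists overlapped.

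Most genes changed little between 12 h and 24 h. The median log2 ratio was 0.02, the quartiles lay at −0.16 and 0.21, and 5207 genes (89.0%) were within 1.5-fold. At least 2-fold higher at 24 h were 111 genes (1.90%), and at least 2-fold lower were 56 (0.957%). These shares are the scale for the counts of the lists below. For 88 of the higher and 43 of the lower genes the whole counting interval lay beyond 2-fold. Ratios ran from 0.131 to 12.5. Just short of the limit, 75 genes were 1.8-fold to 2-fold higher and 32 were 1.8-fold to 2-fold lower, so the exact counts depend on where the limit is set. The summed means were 22409419 at 24 h and 20819059 at 12 h, a difference of 0.11 on the log2 scale. Scaled to the same total instead, 79 genes were 2-fold higher and 70 were 2-fold lower, which makes the share of higher genes among those called 53.0%, against 66.5% with the authors' scaling.

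**Figure D1:**
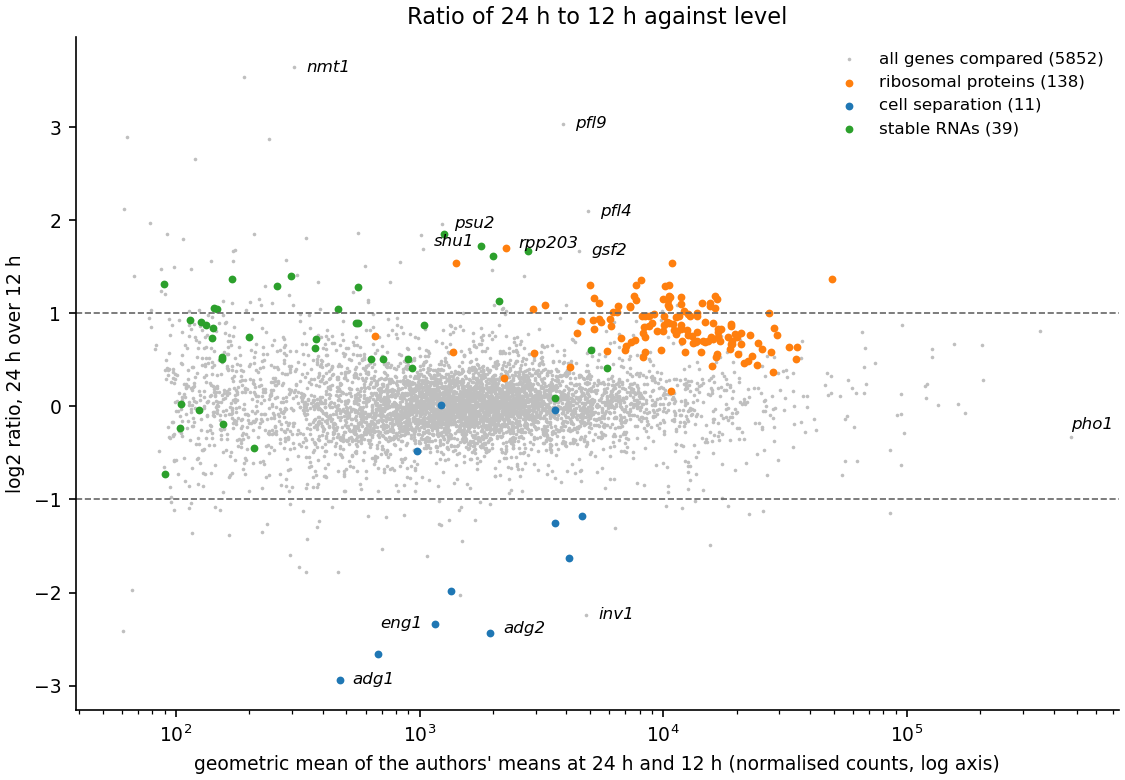
Log2 ratio of the authors' means, 24 h over 12 h (vertical axis), against the mean of the log2 levels at both times (horizontal axis), 1 point per gene, with dashed lines at 2-fold. Ribosomal protein genes (orange) form a band above 0, cell separation genes (blue) lie below the lower line with few exceptions, and stable RNAs (green) lie mostly above 0.

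The neighbouring steps of the same course give a scale for these counts, though each shares libraries with the step described. From 8 h to 12 h, 38 genes (0.651%) were at least 2-fold higher at 12 h and 16 (0.274%) were lower, of 5841 compared in the same way. From 24 h to 36 h, 14 of 5830 genes (0.240%) were at least 2-fold higher at 36 h and 75 (1.29%) were lower. The first of these intervals lasts 4 h and the others 12 h.

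The genes that were lower at 24 h were led by those that separate daughter cells. Fission yeast splits the new septum after division with glucanases whose genes are switched on late in mitosis. Of the 11 cell separation genes compared, 8 were at least 2-fold lower at 24 h and none was higher, with a median log2 ratio of −1.63, against 0.957% lower and a median of 0.02 over all genes. These 8 were also 8 of the 41 protein-coding genes that were lower. The list was drawn up with earlier results of these data known and its count is a description. In RNA from a whole culture, fewer cells passing through mitosis and less of these mRNAs per cell cannot be told apart.

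*adg1*, a gene expressed with this group, had the lowest ratio of all genes, with 170.4 at 24 h and 1304 at 12 h (7.66-fold lower, interval 6.97 to 8.42). *adg2* had 841.3 at 24 h and 4538 at 12 h, 5.39-fold lower. *eng1*, the endo-β-1,3-glucanase that digests the primary septum, had 512.8 at 24 h and 2586 at 12 h, 5.04-fold lower. Its partner *agn1*, the endo-α-1,3-glucanase that opens the surrounding wall, had 676.7 at 24 h and 2683 at 12 h, 3.97-fold lower. Both septum-degrading enzymes were thus among the 12 protein-coding genes of lowest ratio.

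The remaining called members differed less. *cfh4*, a chitin synthase regulatory factor, had 2342 at 24 h and 7225 at 12 h (3.09-fold lower). *mid2*, an anillin-like protein of the septin ring, had 2332 at 24 h and 5538 at 12 h (2.38-fold lower, interval 2.31 to 2.44). *adg3* had 3099 at 24 h and 7010 at 12 h. The 3 members that were not called are transcription factors that act early in the periodic expression of this group. The forkhead factors *fkh2* (1228 at 24 h and 1218 at 12 h) and *sep1* (3569 at 24 h and 3654 at 12 h) were at nearly the same level at both times, and the MADS-box factor *mbx1* had 823.5 at 24 h and 1150.4 at 12 h. *eng1* had means of 6002, 7936, 3402, 2586, 512.8, 542.4 and 673.9 over the 7 times in order, and *adg1* had 3629, 3364, 1609, 1304, 170.4, 58.3 and 92.1. Both were already below their 0 h level at 8 h.

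**Figure D2:**
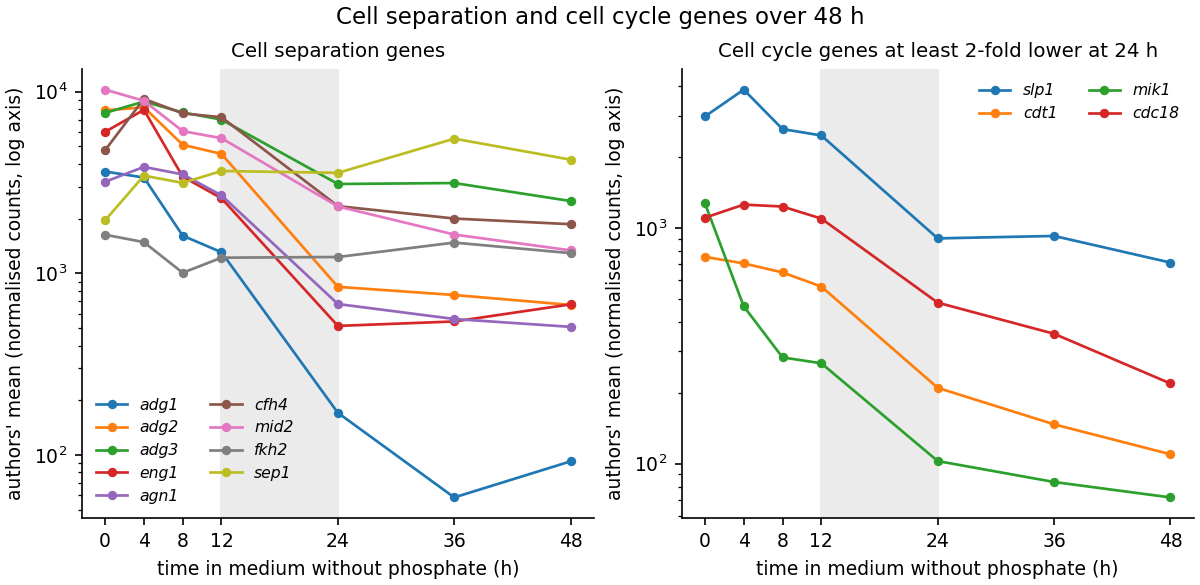
Authors' mean normalised counts (log axis) at 7 times (0 h in rich medium, all later times without phosphate), 1 line per gene, with the step from 12 h to 24 h shaded. Left, cell separation genes and their regulators: *adg1* reaches 170.4 at 24 h against 1304 at 12 h while *fkh2* and *sep1* stay level. Right, *slp1*, *cdt1*, *mik1* and *cdc18* are each lower at 24 h than at 12 h.

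*cts2*, annotated as a chitinase, is not on the cell separation list. It had 725.8 at 24 h and 2965 at 12 h, 4.09-fold lower (interval 3.895 to 4.285). *SPBC800.11*, annotated as a nucleoside hydrolase, had 250.4 at 24 h and 859.9 at 12 h, 3.43-fold lower. The protein-coding genes of lowest ratio thus held genes of septum and wall turnover together with genes of other kinds.

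Genes of other parts of the cell cycle were lower in small numbers. Of 49 genes for mitosis and cytokinesis 1 was 2-fold lower, and the median log2 ratio was −0.09. That gene was *slp1*, the Cdc20-type activator of the anaphase-promoting complex, with 903.4 at 24 h and 2469 at 12 h (2.73-fold lower). Of 44 genes for S phase, many of them driven by the MBF transcription factor complex, 3 were lower and none higher. Their median was −0.12. Of all genes compared, 0.957% were lower. *cdt1*, which licenses replication origins, had 209.8 at 24 h and 564.4 at 12 h (2.69-fold lower, interval 2.45 to 2.95). *cdc18*, its partner in licensing, had 482.2 at 24 h and 1096 at 12 h (2.27-fold lower). *mik1*, a Wee1-like kinase that holds cells before mitosis, had 102.6 at 24 h and 266.7 at 12 h (2.60-fold lower). The licensing pair moved in the same direction, but the helicase subunit gene *mcm2*, also on the list, was higher at 2337 at 24 h and 1516 at 12 h and short of 2-fold.

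All 3 called S phase genes were lower still at 48 h. *cdc18* had means of 1106, 1257, 1233, 1096, 482.2, 355.7 and 218.9 over the 7 times, and *cdt1* had 754.3, 707.4, 647.8, 564.4, 209.8, 146.9 and 109.6. For both, the largest drop between neighbouring times was the one from 12 h to 24 h. The sequence from 500 bases before to 50 bases after the RefSeq transcript start (ASM294v3) was searched on both strands. The MBF box ACGCGT was found in this window in 10 of the 44 S phase genes (22.7%), against 4.62% of all protein-coding genes. It stands 77 bases before the start of *cdt1*, printed because this was the most reduced gene of the list, 5′ to 3′ on the strand of the gene with the box in capitals. The other called S phase genes, *cdc18* and *mik1*, hold no match in this window. The 230 protein-coding genes compared that hold the box had a median of −0.05, with 2 higher and 5 lower. All 4915 protein-coding genes compared had a median of 0.00, with 56 higher and 41 lower. A match is a description, not a shown binding site.
*cdt1*: gatagctacgcgACGCGTcaacaaacgcga

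No histone gene was called, and the members of the family did not move together. The median log2 ratio of the 12 genes on the list, which also holds the histone gene regulator *ams2*, was −0.40, with 9 below 0. The H3 and H4 pair *hht2* and *hhf2* went the other way. *hht2* had 44085 at 24 h and 30794 at 12 h, and *hhf2* had 32079 at 24 h and 21973 at 12 h. The other genes of H3 and H4 differ from these in sign except *hht3*, with 38624 at 24 h and 30057 at 12 h. *hhf3* had a log2 ratio of −0.71, *htb1*, the H2B gene, −0.58, and *ams2* −0.57. Histone genes encode near-identical proteins and share sequence, so that the split of reads between copies is uncertain. Histone mRNA in yeasts is polyadenylated and was therefore in reach of this library type.

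Ribosomal protein genes made up most of the protein-coding genes that were higher at 24 h. They were 37 of the 56 called. All 138 members compared were above 0 on the log2 scale, 119 were at least 1.5-fold and 37 (26.8%) at least 2-fold higher, with log2 ratios between 0.17 and 1.70. The large-subunit genes had a median of 0.85 with 27 of 83 called, and the small-subunit genes 0.80 with 10 of 55 called. Scaled to the same total, all 138 were still above 0 and 15 of the 83 large-subunit genes remained past 2-fold. The summed means of the large-subunit genes were 1447800 at 24 h and 809120 at 12 h. Those of the small-subunit genes were 958850 at 24 h and 556390 at 12 h. These genes thus make up part of the difference in total that this scaling removes.

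All 7 genes of the stalk, which recruits translation factors to the large subunit, were at least 2-fold higher. This set was picked by gene symbol and is not among the 46 lists. *rpp203* had the highest ratio of any ribosomal protein gene, with 4085 at 24 h and 1255 at 12 h (3.26-fold, interval 3.14 to 3.38). *rpp202* had 78982 at 24 h and 30677 at 12 h (2.58-fold), a level far above that of *rpp203* with a lower ratio. *rpp0*, the stalk base, had 38398 at 24 h and 19181 at 12 h (2.0-fold), with an interval that includes 2. Among other large-subunit genes *rpl3002* had 2403 at 24 h and 824.1 at 12 h (2.92-fold), and *rpl3602* had 18574 at 24 h and 6371 at 12 h (2.92-fold). Among small-subunit genes, *rps1502* had 13000 at 24 h and 5080 at 12 h (2.56-fold, interval 2.51 to 2.61), and *rps1402* had 12163 at 24 h and 4940 at 12 h (2.46-fold). Many ribosomal proteins have near-identical gene copies, which share reads, so that values for single copies are less certain than for the family. The difference was smallest for *rpl35A02*, at 0.17 on the log2 scale.

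The higher level at 24 h came after a low point earlier in the course. Large-subunit genes took 12.3%, 2.77%, 2.55%, 3.89%, 6.46%, 5.66% and 7.57% of the summed means over the 7 times in order. Small-subunit genes took 8.79%, 2.01%, 1.81%, 2.67%, 4.28%, 3.82% and 5.16%. Of these genes, 70 of 83 and 47 of 55 had their lowest mean at 8 h. At 24 h the summed share of each subunit was thus between its low point and its level in rich medium. Most members, 74 of 83 and 49 of 55, had their highest mean at 0 h. *rpp202* did not, with 29595 at 0 h and 78982 at 24 h.

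**Figure D3:**
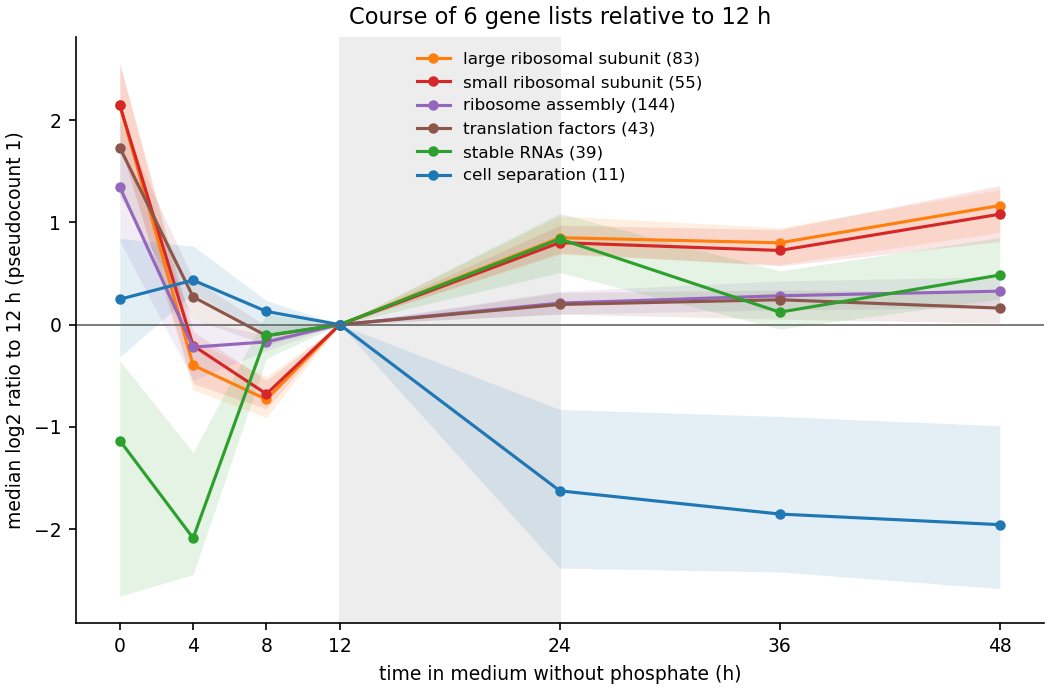
Median over the genes of 6 lists of the log2 level relative to 12 h (pseudocount 1) at 7 times, with bands from the lower to the upper quartile of the genes. Ribosomal protein genes lie below their 12 h level at 4 h and 8 h and above it at 24 h, and cell separation genes lie above or near it before 12 h and below it from 24 h on.

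Transcript length moved with the ratio, to a small extent among protein-coding genes and more among lncRNAs, and is set beside these values. Protein-coding genes other than ribosomal protein genes had a median log2 ratio of 0.17 for transcripts of up to 500 bases, 0.12 from 500 to 1000, 0.03 from 1000 to 1500, −0.04 from 1500 to 2500 and −0.05 above 2500. Ribosomal protein genes had 0.88 in the shortest class (42 genes, 15 called) and 0.83 in the class from 500 to 1000 bases (86 genes, 20 called). Ribosomal protein genes thus stood well above other protein-coding genes of the same length class. They were nearer to the lncRNAs of up to 500 bases, which had a median of 0.60 with 13 of 43 called. The part of length in the ratios was not tested.

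Ribosomal protein genes of fission yeast share the HomolD box, a core promoter element that takes the place of a TATA box. CAGTCACA, in either direction, stood in the same window in 54 of 83 large-subunit genes (65.1%) and 35 of 55 small-subunit genes (63.6%), against 156 of all 5110 protein-coding genes (3.05%). Of the 56 higher protein-coding genes 26 held it (46.4%), and of the 41 lower none. Ribosomal protein genes were 25 of these 26, so this share restates the make-up of the higher genes. Within the family its presence did not go with the ratio, as the 89 genes that hold it and the 49 that do not had the same median of 0.83. The matches clustered at a fixed distance, with 86 genes having one at 40 to 80 bases before the start and a median distance of 51.5 bases. Shown are the 2 genes of highest ratio that hold it in each subunit, with both matches of *rps1402*, and, last, *rpl35A02*, with the match in capitals and 5′ to 3′ on the strand of the gene. TGTGACTG is the reverse complement of the same box.
*rpp203*, 74 bases before: tcttgaaacgtTGTGACTGtctttttcgta
*rpl3002*, 55 bases before: gtttggatttaTGTGACTGtttttcttgga
*rps1502*, 44 bases before: tacgaaaaagaCAGTCACAacgtttcaaga
*rps1402*, 85 bases before: tttcccatgagCAGTCACAaaagtttcgac
*rps1402*, 59 bases before: cgacacaaattTGTGACTGttcctttagtt
*rpl35A02*, 47 bases before: cacaagaagggCAGTCACAgcttaagcaaa

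*rpp203* and *rps1502* are neighbours on chromosome I, and both stretches are the same bases read from opposite strands, so that the pair shares 1 box. Both matches of *rps1402* are likewise those of its neighbour on the other strand, *rpl701*, which had a log2 ratio of 0.43 against 1.3 for *rps1402*. Whether the box sets the level of these genes was not tested.

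No gene of the ribosome assembly or translation factor lists was called. Of 144 ribosome assembly genes 131 were above 0 and the median log2 ratio was 0.21. The 43 translation factor genes had a median of 0.20 with 40 above 0, and the 16 RNA polymerase I genes 0.28 with 12 above 0. *btf3*, a subunit of the nascent polypeptide-associated complex that meets new chains at the ribosome, had 16712 at 24 h and 7837 at 12 h (log2 1.09). Its partner *egd2* had a log2 ratio of 0.97. Both were named after their values were seen. Genes of aminoacyl tRNA synthetases (median −0.01, 35 genes) and of the mitochondrial ribosome (0.03, 75 genes) lay at the centre of all genes. The median of the mitochondrial ribosome changes sign with scaling to the same total.

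Most of the compared RNAs that are not polyadenylated for their function were also higher, though rRNA genes as a class were not. Poly(A)+ selection captures only the part of such RNAs that carries a tail, such as precursors and molecules marked for decay, so their values measure that part and not the whole pool. Of 39 tRNA, rRNA, snRNA and snoRNA genes compared, out of 277 listed, 13 were at least 2-fold higher and none was lower. Their median log2 ratio was 0.84, with a range from −0.72 to 1.85. Over all genes 1.90% were higher. By class, 10 of 27 snoRNAs and 3 of 4 snRNAs were called, and none of 7 rRNA genes, which had a median of −0.04. *sno52* had 2392 at 24 h and 664.8 at 12 h (3.60-fold, interval 3.43 to 3.78). *snoR61* had 4968 at 24 h and 1565 at 12 h (3.18-fold). *snu3*, a U3 gene needed for rRNA processing, had 3488 at 24 h and 1139 at 12 h (3.06-fold), and its second copy *snu32* had 3237 at 24 h and 980.7 at 12 h (3.30-fold). Both U3 copies moved alike, and as they are near-identical the reads of one may be counted for the other.

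Their courses differed. *snu3* had means of 101.7, 116.4, 1094, 1139, 3488, 3672 and 6289 over the 7 times, a series of increases. *sno52* had 447.5, 412.8, 831.9, 664.8, 2392, 1117 and 1623, with its highest level at 24 h. Of the 39 genes, 22 were highest at 24 h and 14 at 48 h. Their median log2 level relative to 12 h (pseudocount 1) was 0.84 at 24 h, 0.12 at 36 h and 0.485 at 48 h. Most of the rise was therefore gone at 36 h. RNA quality and the efficiency of poly(A) selection, which could move these RNAs, were not measured in the values used, and their part was not tested. The part of transcript length in these ratios was not tested either.

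Long non-coding RNAs were called more often than protein-coding genes. Of 871, 40 were higher (4.59%) and 15 lower, with a median log2 ratio of 0.15. Of 4915 protein-coding genes, 56 were higher (1.14%) and 41 lower, with a median of 0.00. Short ones accounted for many, as 13 of the 43 lncRNAs of up to 500 bases were called, with a median of 0.60, against 0.04 for those above 2500 bases. A gene on the other strand overlapped 24 of the 40 higher and 14 of the 15 lower ones, and 732 of all 871 (84.0%). With a minimum mean of 100 at both times, 26 were higher and 8 lower. The 874 annotated non-coding RNAs, these among them, had median log2 levels relative to 12 h of 0.15 at 24 h, −0.07 at 36 h and 0.20 at 48 h.

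The highest ratio among them was that of *SPNCRNA.1299*, with 646.9 at 24 h and 55.6 at 12 h (11.6-fold, interval 9.98 to 13.6). It did not hold this level, with 206.8 at 36 h and 674.9 at 48 h. *SPNCRNA.1079* had 650.3 at 24 h and 88.6 at 12 h (7.34-fold), and went on to 1307 at 36 h and 1630 at 48 h. *SPNCRNA.942* had 127.9 at 24 h and 29.5 at 12 h, with only 25.7 by 36 h. *SPNCRNA.283* had 301.04 at 24 h and 47.8 at 12 h (6.30-fold) and reached 483.4 at 48 h, and *SPNCRNA.284* had 154.6 at 24 h and 39.6 at 12 h (3.91-fold). *SPNCRNA.942* was therefore high at 24 h alone, whereas *SPNCRNA.1079* and *SPNCRNA.283* were higher still at 48 h. The lncRNA with the largest fall was *SPNCRNA.1246*, with 26.3 at 24 h and 140.2 at 12 h (5.33-fold lower, interval 4.19 to 6.94). *SPNCRNA.1309* had 33.3 at 24 h and 131.1 at 12 h (3.94-fold lower), *SPNCRNA.1334* had 176.4 at 24 h and 582.8 at 12 h (3.30-fold lower), and *SPNCRNA.1544* had 168.8 at 24 h and 509.7 at 12 h (3.02-fold lower). These 3 were below 100 at 36 h. *SPNCRNA.1695* had 410.5 at 24 h and 1190 at 12 h, after 33.9, 323.3 and 743.0 at 0, 4 and 8 h.

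Outside the ribosome, 19 protein-coding genes were at least 2-fold higher, and several encode proteins of the cell surface. *nmt1*, the thiamine biosynthesis enzyme whose promoter is the standard thiamine-repressible promoter of fission yeast, had the highest ratio of all genes. Its mean was 1081 at 24 h and 86.6 at 12 h, 12.5-fold higher (interval 11.1 to 14.2). The course was 18.2, 27.1, 52.0, 86.6, 1081, 3593 and 4985, so that the level went on increasing to 48 h. The RNA *SPNCRNA.1234* on its other strand had 783.7 at 24 h and 814.7 at 12 h. The medium contained thiamine when the cells were moved into it. The 6 other thiamine genes compared did not follow, as none was called, and the median of all 7 was −0.04.

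Of the 15 flocculin and adhesion genes compared, 3 were higher and 1 was lower, with a median of 0.04. These encode large surface glycoproteins that make cells stick to each other or to a substrate. *pfl9* had 11068 at 24 h and 1349 at 12 h (8.21-fold, interval 7.95 to 8.47). *pfl4* had 10108 at 24 h and 2365 at 12 h (4.27-fold). *gsf2*, the galactose-specific flocculin that mediates flocculation, had 8019 at 24 h and 2522 at 12 h (3.18-fold). *mbx2*, a transcriptional activator of flocculin genes, had 3246 at 24 h and 1943 at 12 h, 1.67-fold. *pfl2* went the other way, with 12784 at 24 h and 26861 at 12 h (2.1-fold lower). The family therefore split, with its median at that of all genes. Members of this family hold internal repeats and share sequence, so that reads could be split between them.

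Cell wall genes were called in both directions. Of 30 genes 2 were higher and 3 lower, and the median log2 ratio was −0.24 with 24 below 0. *psu2*, a SUN-family protein of the wall, had 2430 at 24 h and 624.7 at 12 h (3.89-fold). The sources used here do not say whether counting used the strand, so reads of overlapping genes may not be fully told apart. An RNA on the other strand of *psu2*, *SPNCRNA.1601*, had 1974 at 24 h and 1085 at 12 h. *agn2*, an endo-α-1,3-glucanase known for opening the ascus after sporulation, had 3300 at 24 h and 1198 at 12 h (2.76-fold, interval 2.65 to 2.86). It was higher while its relative *agn1*, which separates dividing cells, was lower. *chs2* had 242.6 at 24 h and 597.8 at 12 h, and *gas1*, a β-1,3-glucanosyltransferase, had 10640.0 at 24 h and 19766 at 12 h and was short of 2-fold.

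*shu1*, a surface protein that takes up haem, was the only called gene of the 20 in the iron regulon. It had 1925 at 24 h and 538.7 at 12 h (3.57-fold, interval 3.38 to 3.77), and its course was 9.77, 40.7, 170.6, 538.7, 1925, 3867 and 4030. It was higher at every later time than at the one before. *str3*, described in the paper as a haem transporter, had 801 at 24 h and 454.2 at 12 h, and the list's median was −0.07. *apt1*, adenine phosphoribosyltransferase of the purine salvage pathway, had 3123 at 24 h and 1509 at 12 h (2.07-fold, with an interval of 1.998 to 2.143 that includes 2). *hsp3105*, a DJ-1 family protein, had 1201 at 24 h and 474.4 at 12 h (2.53-fold). Of the 3 without a well-known role among the highest ratios, *SPAC56F8.12* had 171.7 at 24 h and 23.03 at 12 h, *SPBPB2B2.18* had 198.5 at 24 h and 57.2 at 12 h, and *SPBC16E9.20* had 307.1 at 24 h and 96.6 at 12 h. Each of these 3 was lower again at 36 h, at 29.1, 64.9 and 140.7, and higher than that at 48 h, at 154.4, 106.0 and 283.6.

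**Figure D4:**
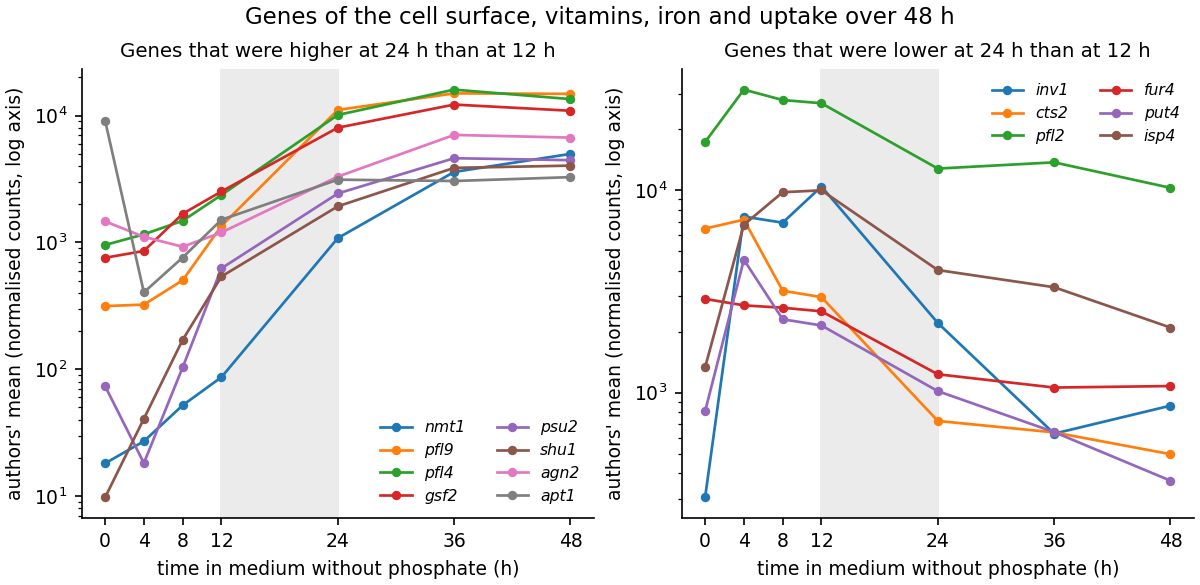
Authors' mean normalised counts (log axis) at 7 times (0 h in rich medium, all later times without phosphate), 1 line per gene, with the step from 12 h to 24 h shaded. Left, genes at least 2-fold higher at 24 h: *nmt1* reaches 1081 at 24 h against 86.6 at 12 h, and 7 of the 8 genes are higher again at 36 h. Right, genes at least 2-fold lower at 24 h, among them *inv1*, with 2211 at 24 h against 10425 at 12 h.

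Several genes for the use and uptake of sugars and nitrogen sources were lower. *inv1*, the secreted invertase that is repressed by glucose, had 2211 at 24 h and 10425 at 12 h (4.71-fold lower, interval 4.59 to 4.84). It had been high through the early course, with means of 304.2, 7413, 6909, 10425, 2211, 628.0 and 863.3. Of 6 hexose transporter genes compared 5 were below 0, with a median of −0.55 and none called, and *ght4* had 1168 at 24 h and 2087 at 12 h. Glycolysis genes lay on the other side, with a median of 0.23 and 15 of 18 above 0. *gpd3*, glyceraldehyde-3-phosphate dehydrogenase and among the most abundant mRNAs, had 465510 at 24 h and 265440 at 12 h. Like the levels of the ribosomal protein genes, this level bears on the summed means given above.

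Of 15 amino acid and peptide transporter genes, 14 were below 0 and 3 were called lower, with a median of −0.32. Over all genes 0.957% were lower. *isp4*, an oligopeptide transporter, had 4034 at 24 h and 9987 at 12 h (2.48-fold lower, interval 2.42 to 2.53). *put4*, for proline, had 1019 at 24 h and 2149 at 12 h (2.11-fold lower), and *aat1* had 842.4 at 24 h and 1709 at 12 h (2.03-fold lower, with an interval of 1.93 to 2.13 that includes 2). *SPBC359.01*, annotated as an amino-acid permease, had 184.9 at 24 h and 633.4 at 12 h (3.43-fold lower). *SPBC23G7.13c*, annotated as a urea transporter, had 614.5 at 24 h and 1867 at 12 h (3.04-fold lower). *fur4*, the uracil permease, had 1234 at 24 h and 2523 at 12 h (2.05-fold lower), and all 6 uracil-regulated genes were below 0, with a median of −0.49. Biosynthesis did not share this direction, as none of 72 amino acid biosynthesis genes was called and their median was −0.02.

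A few of the genes that the move to a defined medium raises were lower. The list of 72 genes was taken from other strains and media of the same study, and is no independent evidence of direction. It had 5 genes called lower, none higher, 18 above 0 and a median of −0.31, against 0.957% lower and a median of 0.02 over all genes. *SPAC1039.02* had 57104 at 24 h and 126700.0 at 12 h (2.22-fold lower). RefSeq names its product a phosphoprotein phosphatase, and the paper describes it as a predicted extracellular nucleotidase regulated by phosphate. *SPAC27D7.11c*, of the But2 family, had 17295 at 24 h and 37833 at 12 h (2.19-fold lower). *cbm1*, which encodes a protein with a cellulose-binding domain and belongs to no list, had 9247 at 24 h and 26033 at 12 h (2.82-fold lower, interval 2.78 to 2.86), after 3106, 15569 and 24731 at 0, 4 and 8 h. These 3 genes were abundant and had been at high levels from 4 h on.

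The PHO regulon itself was nearly level. *pho84*, the phosphate transporter, had 134780 at 24 h and 133600.0 at 12 h (log2 0.01). *pho1*, the secreted acid phosphatase, had 422770 at 24 h and 529740 at 12 h (−0.33), and *tgp1*, the glycerophosphodiester transporter, had 54857 at 24 h and 58801 at 12 h (−0.10). These 3 mRNAs were among the most abundant at both times. The lncRNAs that lie upstream of them and hold them down when phosphate is present were higher but not called. *nc-tgp1* had 2178 at 24 h and 1266 at 12 h (0.78), *nc-pho1* had 284.9 at 24 h and 148.2 at 12 h (0.94), and *prt2* had 902.7 at 24 h and 680.9 at 12 h (0.41). These RNAs overlap the PHO mRNAs or their flanks on the same strand, so reads that run past an mRNA's ends could add to them.

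Few other genes used to release and recycle phosphate were called. Of 34 genes for phosphate mobilisation, a list from other libraries of the study, 1 was lower, none was higher and the median was −0.04. The lower one was *SPAC1039.02*, and 4 in all were at least 1.5-fold lower. Among these *SPBPB2B2.06c*, which the paper also describes as a predicted extracellular nucleotidase, had 42193 at 24 h and 70123 at 12 h (1.66-fold lower). The summed means of the list were 951960 at 24 h and 1157500 at 12 h. The 34 autophagy genes had a median of 0.00 with none called, and *atg12*, the ubiquitin-like conjugation protein of autophagosome formation, had the highest ratio of them (1403 at 24 h and 791.4 at 12 h, 1.77-fold). The 35 proteasome genes had a median of 0.04 and a range from −0.23 to 0.33.

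**Figure D5:**
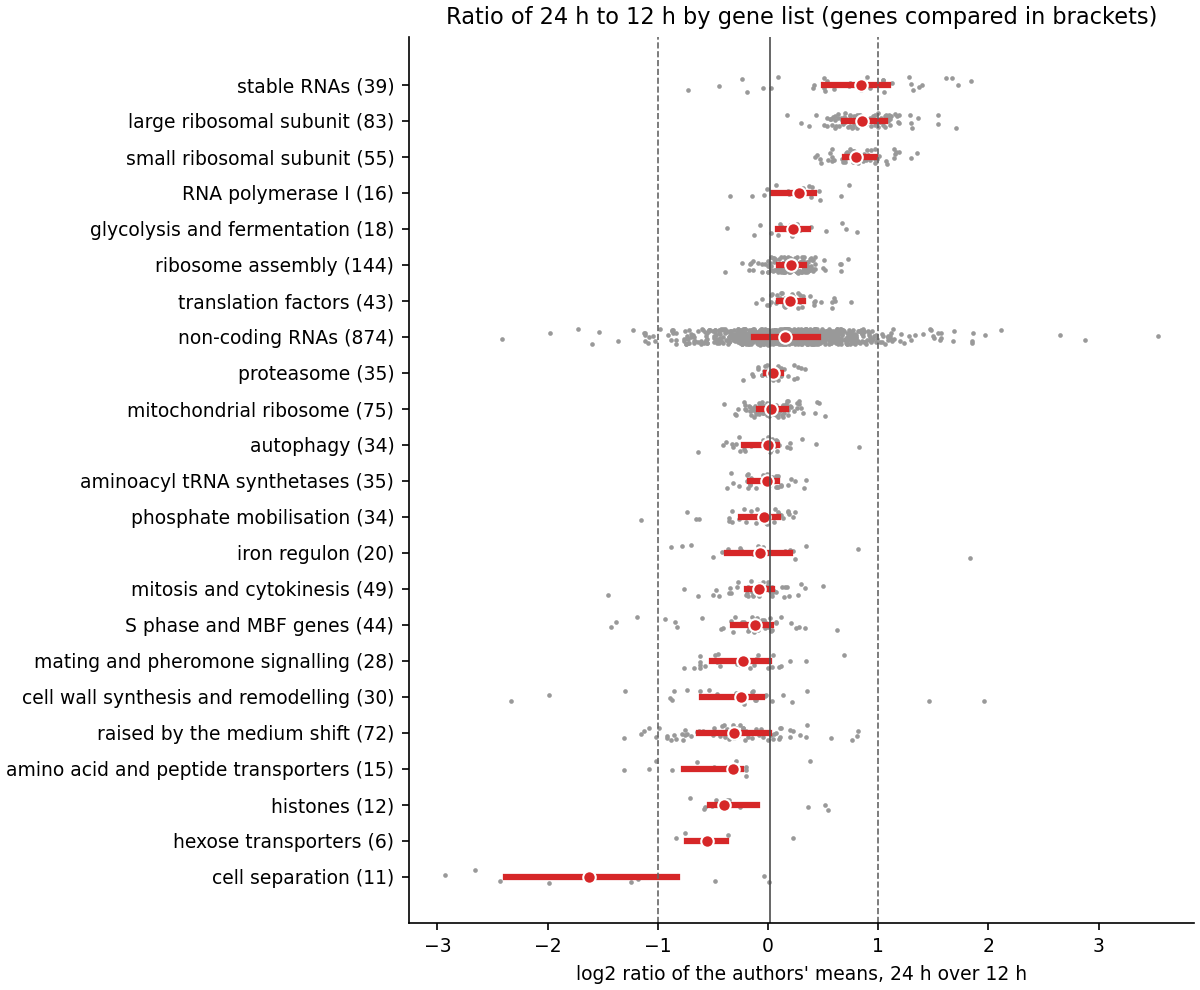
Log2 ratios of the authors' means, 24 h over 12 h, for 23 gene lists, 1 point per gene, with a bar from the lower to the upper quartile and a dot at the median of each list. The solid line is the median of all genes compared (0.02). Ribosomal protein and stable RNA lists lie to the right, cell separation genes lie far to the left, and most lists lie across the line.

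Stress genes had no common direction. Of 19 core stress genes 1 was higher and 1 lower, with a median of −0.06. The higher one was *hsp3105* and the lower one *rds1*, with 15031 at 24 h and 33419 at 12 h (2.22-fold lower). Among 20 heat shock chaperone genes none was called, and *hsp16*, a small heat shock protein, had 129650 at 24 h and 70953 at 12 h (log2 0.87). Of 25 antioxidant and metal genes none was called and the median was 0.12. In the respiratory chain and ATP synthase, *gut2*, the mitochondrial glycerol-3-phosphate dehydrogenase, was the only called gene of 44, with 864.4 at 24 h and 2011 at 12 h (2.33-fold lower), while the TCA cycle genes had a median of 0.02. Genes for sterols and fatty acids had a median of −0.19 with 20 of 26 below 0 and none called.

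Few sexual differentiation genes were called. Of 28 mating genes none was called, but 21 were below 0 and 6 were at least 1.5-fold lower, with a median of −0.23. Of 129 meiosis and sporulation genes 1 was higher and 1 lower, with a median of −0.03. *mde5* had 141.3 at 24 h and 359.8 at 12 h (2.55-fold lower), and *mug95* had 133.5 at 24 h and 56.6 at 12 h (2.36-fold, with an interval of 1.98 to 2.83 that includes 2). Among subtelomeric genes, 59 of 131 reached the minimum level, and 4 were called in each direction. They split between *pfl9*, *SPCC569.09* (14096 at 24 h and 6929 at 12 h), *SPBPB2B2.18* and *SPBPB2B2.08* on the higher side and *aes1*, *gal1*, *tgd1* and *put4* on the lower. Of 60 transcription factor genes, 2 were called lower and none higher. *atf31*, 1 of them, had 80.4 at 24 h and 165.2 at 12 h, with an interval of 1.76 to 2.41 around its 2.05-fold fall.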

How the data were processed

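RNA of 21 libraries (3 biological replicates at each of 7 times) was made with a stranded poly(A)+ kit and sequenced paired-end. Per the methods and processing notes, the authors aligned reads with HISAT2 2.1.0, handled them with SAMtools, counted them over PomBase exons (ASM294v2) with HTSeq 0.10.0 and normalised them with DESeq2. The deposited signal values used here are the authors' mean normalised counts per gene and time. The 6 tables also hold fold changes, standard errors, test statistics and p-values of each time against 0 h, and a mean over both, and none of these columns was used.

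The 24 h and 12 h means were matched by gene ID and divided. Size factors, and from them the reads behind a mean, were worked out from the lowest means, which are sums of whole reads (tolerance 1e-06). A mean of 0 was set to a floor of 3 reads over the 3 libraries. Since no value of a single library was used, there is no SD and no test. The ratio was run on simulated data with known fold changes and a chosen spread between libraries, not one measured in these cultures. The counting interval was run on simulated counting error alone, which is what it assumes, so that run says nothing about error between cultures. Names and products came from RefSeq (ASM294v3), matched for 6836 of 6988 IDs by locus tag and 12 by synonym, and no coordinates are given because the builds differ. Promoter windows ran from 500 bases before to 50 after the RefSeq start. Work was done in Python 3.11.15 with numpy 2.4.6, pandas 2.3.3, scipy 1.17.1 and matplotlib 3.10.9.

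Genes and 46 lists were chosen with earlier results of these data known. Lists were corrected from product names and known roles, never from values: genes whose product did not belong were dropped, patterns for the proteasome, mitochondrial ribosome and tRNA synthetases were set to product names, non-coding lists to RefSeq classes, and *mam2* and *map3* were exchanged between the M and P lists. The phosphate mobilisation and medium shift lists come from other strains and media of this study. By rule the text names the 12 protein-coding genes and 5 non-coding RNAs of largest ratio each way, and may name up to 4 genes each way per list, not all of which are given. A few others (such as *btf3*, *rpp0* and overlapping RNAs) were named after their values were seen. One of the genes that this rule names, and a promoter motif, are not reported here, though the gene stays in the counts of its lists.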

Additional observations from a re-analysis of the deposited data

How the results depend on the processing

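The values are means of 3 libraries, so a single deviating culture cannot be seen, and leaving out each replicate in turn was not run for the same reason. No paired analysis was possible because the columns used are means that carry no replicate numbers. Of 70 named genes called, 67 stayed past 2-fold with means scaled to the same total, 68 with a pseudocount of 10 and 70 with centring. None of these settings could reverse a 2-fold call, so the kept direction is no support. Centring moved log2 ratios by 0.004 and the same total by 0.11, and a pseudocount keeps the sign. Division by the 0 h mean, which is the same for both times, cancels out of the ratio. Medians near 0 changed sign as given below. Against 111 higher and 56 lower, a minimum mean of 500 gave 73 higher, and no minimum with a pseudocount of 1 gave 254 higher and 102 lower. A minimum of 100 at both times gave 26 non-coding RNAs higher and 8 lower, 2 subtelomeric genes higher, 1 transcription factor lower, and 0 higher among meiosis and thiamine genes, as *nmt1* was below it at 12 h. With the same total, 15 large-subunit genes, 2 subtelomeric genes and 0 purine genes were higher, and 2 core stress and 8 medium shift genes were lower. Scaling to the same total also put below 0 the medians of the autophagy, proteasome, mitochondrial ribosome, tRNA modification, flocculin, TCA cycle and respiratory lists. Over genes on 1 list alone, the iron regulon median was 0.01, against -0.07. A pseudocount of 10 left 1 transcription factor lower. Without genes on more than 1 list, 5 cell separation genes, 1 cell wall gene, 1 transcription factor and 1 medium shift gene were lower, and 0 of the phosphate mobilisation, trehalose, respiratory and amino acid transporter lists, because this setting drops shared genes. Of the calls, 88 higher and 43 lower had a counting interval wholly past 2-fold.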
